A study of Mus musculus with 6 samples.

Results

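The genes described here were 33 named genes of G2 and mitosis, matched by symbol to the gene table, and all 33 were found among its 27179 genes. They were measured by bulk RNA sequencing in cancer-associated fibroblasts (CAFs) of raGFP-Wnt1 mice, the cross of a Pdgfra reporter, which puts a nuclear green fluorescent protein (GFP) in fibroblasts from 1 Pdgfra allele, with the MMTV-Wnt1 transgene, whose viral promoter drives Wnt1 mainly in the mammary epithelium and gives rise to mammary tumors. All libraries therefore shared the transgene, the reporter and a tumor as their source, and no untreated or normal gland sample was compared. GFP-positive cells without the lineage markers CD31, CD45 and TER-119 were sorted from 3 tumors of female mice into a CD34 negative and a CD34 positive fraction, which gave 6 libraries, 3 per fraction, with 1 pair of libraries from each tumor. The age of the mice, and whether each tumor came from its own mouse, were not given in the sources used here, so a p-value covers the spread between these 3 tumors.

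Cells that divide switch on a shared set of genes late in the cycle. The transcription factors FOXM1 and B-MYB, the latter bound to the MuvB complex, activate these genes in G2, at promoters that often hold a cell cycle homology element and CCAAT boxes. Their products condense and attach the chromosomes, build the spindle, hold anaphase back until attachment is complete and then split the cell, and their mRNAs are low in resting fibroblasts. In tumors, CAFs are a mix of resting and cycling cells, and bulk RNA reads the sum of both.

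The promoters are shown because many of the members, though not all, share short sequence words there. A 300-base RefSeq window of build GRCm38.p6, from 250 bases before to 50 after an annotated start, was found for 28 of the 33 genes. The genes without a window were Aurkb, Foxm1, Ccna2, Tpx2 and Kif20a. For some members, such as Mybl2 and Kif2c, the start used lies inside the annotated gene span. Both strands were searched for TTTGAA and TTCGAA, the core of the cell cycle homology element, and for CCAAT. None of these 3 words contains another, and the second is its own reverse complement. TTTGAA was found in the windows of 21 of 28 members, or 75%, against 20.2% of 27025 genes with a window of the same length and 14.5% of the 11140 tested genes among them. TTCGAA was found in 3 members, or 10.7%, against 1.80% of all windows. CCAAT was found in 21 members, or 75%, against 41.1% of all windows. A core together with CCAAT stood in 19 member windows, or 67.9%, against 9.65% of all. These matches describe letters and were not tested as binding sites. Printed below, for 8 members, are the 150 bases before and the 30 from the start used, with the searched words in capitals. They are read on the gene's strand, so that TTCAAA and ATTGG are TTTGAA and CCAAT on the other strand. Top2a, Mki67 and Cenpf had adjusted p-values under 0.05 in limma-voom, edgeR and DESeq2 with the tumor as a fixed block, Ccnb2 and Cdk1 encode a cyclin and its kinase, Racgap1 and Mybl2 were not lower in every tumor, and Nusap1 was the 1 member whose groups did not overlap.
Top2a (chr11:99024160-99024339, minus strand): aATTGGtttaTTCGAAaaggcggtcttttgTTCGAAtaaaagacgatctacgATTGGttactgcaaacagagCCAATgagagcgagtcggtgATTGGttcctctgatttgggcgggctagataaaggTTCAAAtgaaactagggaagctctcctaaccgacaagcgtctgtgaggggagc
Mki67 (chr7:135716350-135716529, minus strand): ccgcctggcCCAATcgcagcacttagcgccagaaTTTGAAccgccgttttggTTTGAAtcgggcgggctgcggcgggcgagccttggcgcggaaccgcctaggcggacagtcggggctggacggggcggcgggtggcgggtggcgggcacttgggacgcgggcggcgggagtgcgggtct
Cenpf (chr1:189688057-189688236, minus strand): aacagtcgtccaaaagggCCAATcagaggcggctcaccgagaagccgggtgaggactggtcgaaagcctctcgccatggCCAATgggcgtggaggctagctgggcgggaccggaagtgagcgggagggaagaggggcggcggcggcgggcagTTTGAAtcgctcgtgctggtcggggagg
Ccnb2 (chr9:70421525-70421704, minus strand): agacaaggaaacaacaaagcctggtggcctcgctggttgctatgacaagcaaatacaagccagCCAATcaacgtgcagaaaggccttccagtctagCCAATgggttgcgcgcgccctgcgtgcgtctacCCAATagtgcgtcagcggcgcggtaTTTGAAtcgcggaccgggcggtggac
Cdk1 (chr10:69352883-69353062, minus strand): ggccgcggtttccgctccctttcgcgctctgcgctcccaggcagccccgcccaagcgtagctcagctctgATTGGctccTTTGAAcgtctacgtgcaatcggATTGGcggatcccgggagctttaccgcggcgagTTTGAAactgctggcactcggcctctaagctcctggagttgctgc
Racgap1 (chr15:99651627-99651806, minus strand): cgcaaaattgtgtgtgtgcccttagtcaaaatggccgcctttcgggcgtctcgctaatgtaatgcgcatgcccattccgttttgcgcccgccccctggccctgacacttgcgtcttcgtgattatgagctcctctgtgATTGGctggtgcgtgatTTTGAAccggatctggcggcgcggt
Nusap1 (chr2:119618148-119618327, plus strand): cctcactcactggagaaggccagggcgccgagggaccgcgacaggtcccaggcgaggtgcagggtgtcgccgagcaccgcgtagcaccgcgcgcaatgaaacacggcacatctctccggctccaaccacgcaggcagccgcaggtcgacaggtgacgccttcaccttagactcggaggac
Mybl2 (chr2:163054485-163054664, plus strand): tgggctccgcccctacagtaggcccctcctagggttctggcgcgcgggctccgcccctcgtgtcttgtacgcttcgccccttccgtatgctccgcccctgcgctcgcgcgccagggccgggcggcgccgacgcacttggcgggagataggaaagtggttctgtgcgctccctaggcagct
The windows of Nusap1 and Mybl2 hold none of the 3 words, whereas Racgap1 holds both TTTGAA and CCAAT close to its start, as do Ccnb2 and Cdk1. Of these, Nusap1, Ccnb2 and Cdk1 were lower in every tumor, and Mybl2 and Racgap1 were not. The annotated span of Mybl2 begins at base 163054327, so its printed stretch lies inside the gene. Its window therefore does not show whether the words stand before that first base. Whether the words go with being lower in every tumor was not tested over the members.

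The libraries are named by fraction and by tumor number, such as negative library 3. Their totals ranged from 35310817 to 59685694 counts in the CD34 negative and from 16238059 to 86609267 in the CD34 positive fraction. Cd34, the sorted marker, was at 79.2, 42.0 and 102 CPM (counts per 1000000 counts of the library, scaled by its TMM composition factor) in negative libraries 1, 2 and 3, and at 678, 563 and 1605 CPM in positive libraries 1, 2 and 3, with no overlap. Pdgfra, the gene of the reporter, lay between 302 and 506 CPM in all libraries. Negative library 3 stood apart: 1308 tested genes, 8.81%, had 0 or 1 count in it, against 17 to 387 in the other libraries, although its total was above those of positive libraries 1 and 3.

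The summed level of the mitotic genes was lower in the CD34 negative than in the CD34 positive fraction of each tumor. Summed over the 33 genes, the CD34 positive library had 137 CPM in tumor 1, 797 in tumor 2 and 259 in tumor 3, and the CD34 negative library had 50.9, 196 and 102 CPM. The sum in the CD34 negative library was thus 37.1%, 24.6% and 39.5% of that in its partner. The group sums overlapped, since negative library 2 lay above positive library 1, and they were 117 ± 73.8 CPM in the CD34 negative and 398 ± 351 CPM in the CD34 positive fraction (SD, n = 3). In bulk RNA, fewer cells in cycle and less mitotic RNA per cell cannot be told apart. The plot of summed levels shows the 3 tumors side by side.

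**Figure D1:**
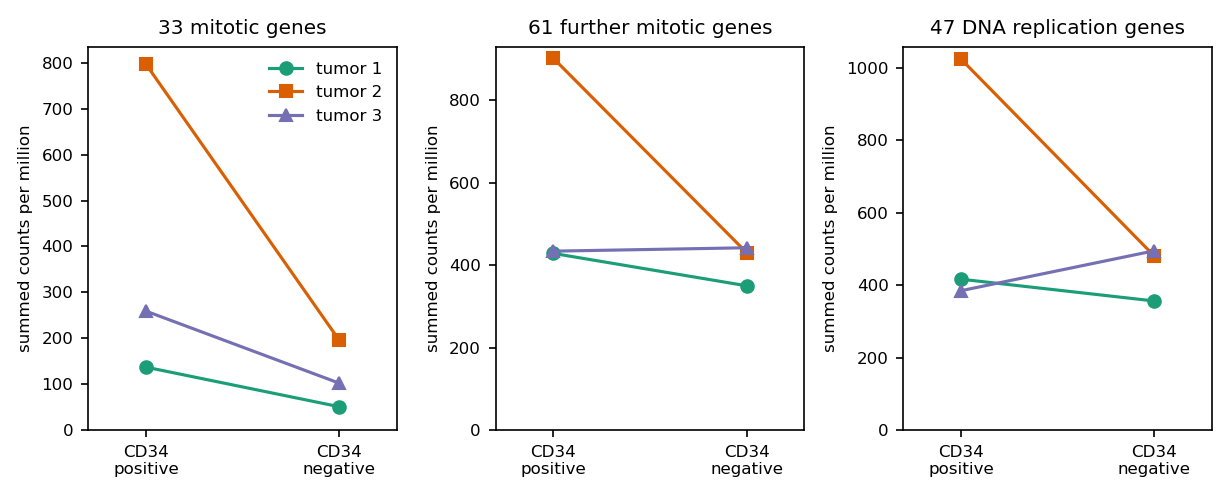
Summed CPM of the 33 mitotic genes, of 61 further mitotic genes and of 47 DNA replication genes (vertical axes, from 0) in the CD34 positive and CD34 negative library of each tumor, with a line joining each pair. The line of the mitotic genes falls in all 3 tumors, from 797 to 196 CPM in tumor 2, while those of the other lists fall most in tumor 2 and rise in tumor 3.

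All 33 genes had a lower fitted level in the CD34 negative fraction, but none passed the test without a tumor term. In limma-voom without a tumor term the log2 fold changes (CD34 negative over CD34 positive) ran from -4.67 to -0.90 with a median of -2.77, against -0.03 over all 14855 tested genes. Benjamini-Hochberg adjusted p-values ran from 0.177 to 0.613, so 0 of 33 passed 0.05, against 0.101% of tested genes called lower. At an unadjusted p under 0.05, 20 members were lower, against a background of 7.1%. Without a tumor term, edgeR called 0 members against 0.0606% of tested genes, and DESeq2 called 1, Cenpf, with an adjusted p of 0.0369, against 2.59%.

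With the tumor as a block, which compares the fractions within each tumor, limma-voom called 17 of the 33 genes lower, against 4.25% of tested genes. With the tumor as a random effect instead, at an estimated correlation, limma-voom called 0 of the 33 against 2.37% of tested genes, with adjusted p-values from 0.0544 to 0.449 and 25 members at an unadjusted p under 0.05. With the fixed block the limma-voom log2 fold changes ran from -3.12 to -0.71 with a median of -1.87, and the median standard error (SE) of the members went from 1.09 to 0.40. With the same block edgeR called 7 members lower against 2.11% of tested genes, and DESeq2 called 23 against 6.02%. All 3 tools called Ccna2, Tpx2, Cenpe, Cenpf, Anln, Top2a and Mki67. Lower values in all 3 pairs (voom log2 CPM, which adds 0.5 to each count) were found for 29 members, against 23.4% of tested genes, and for 28 members without the added count. Only Nusap1 had all CD34 negative libraries below all CD34 positive libraries, 1 of 33 members against 10.1% of tested genes. All 33 genes passed the low-count filter. Of them 19 were above its level of 0.249 CPM in all 3 negative libraries, and 32 in all 3 positive libraries.

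**Figure D2:**
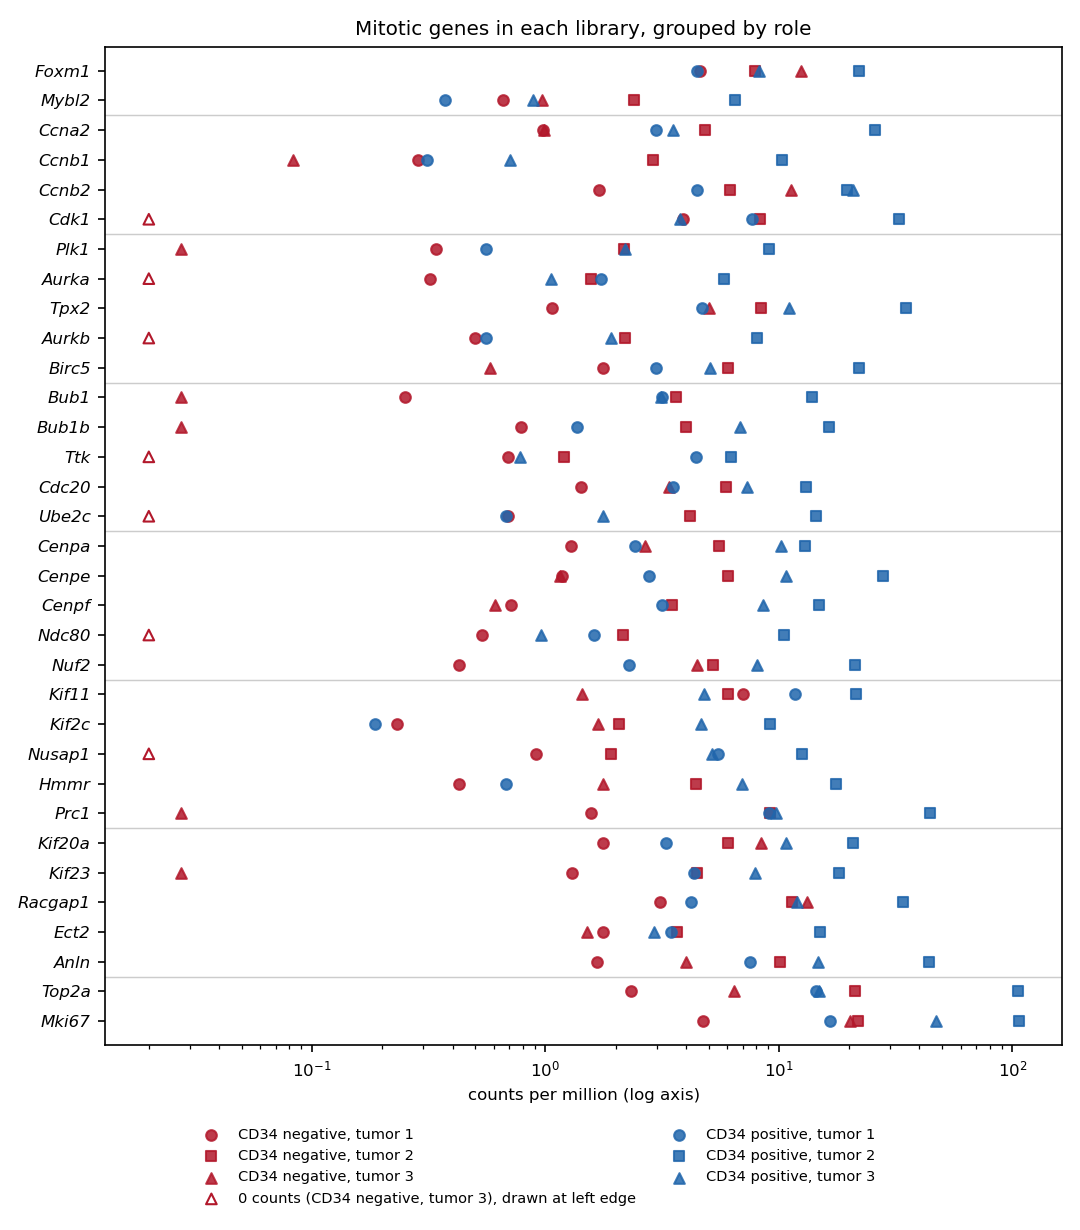
CPM of each of the 33 mitotic genes (rows, in blocks by role) in the 6 libraries on a log axis, with red for CD34 negative, blue for CD34 positive and 1 marker shape per tumor, and open triangles for 0 counts in negative library 3. The blue square of positive library 2 is the rightmost marker for 32 of 33 genes, and red and blue markers overlap for all genes but Nusap1.

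The 2 transcription factors were not lower in every tumor. Foxm1, the forkhead factor of the G2 programme, was at 4.58, 7.86 and 12.5 CPM in negative libraries 1, 2 and 3 and at 4.46, 22.1 and 8.22 CPM in positive libraries 1, 2 and 3. The CD34 negative level was below its partner in tumor 2 and above it in tumor 3, where the log2 ratio was 0.60, with an exact 95% interval of 0.37 to 0.84 for counting error only. Mybl2, which encodes B-MYB, was at 0.66, 2.39 and 0.96 CPM in the negative and at 0.37, 6.47 and 0.88 CPM in the positive libraries. Its negative library was likewise above its partner in tumors 1 and 3, on 6 to 37 counts a library. With the block, limma-voom gave Foxm1 a log2 fold change of -0.71 ± 0.40 (SE, adjusted p = 0.338) and Mybl2 one of -1.12 ± 0.54 (SE, adjusted p = 0.254). Both turned positive when tumor 2 was left out of the blocked fit, at 0.44 and 0.30, and again without positive library 2 in the fit without a block, at 0.13 and 0.78.

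Of the 4 cyclin and kinase genes, limma-voom with the block called 3 lower. Ccnb2, a cyclin B, was the member with the highest level per kilobase of transcript in both fractions, at 4.13 CPM per kilobase in the CD34 negative and 9.70 in the CD34 positive mean. Its levels were 1.69, 6.20 and 11.2 CPM in the negative and 4.46, 19.6 and 20.8 CPM in the positive libraries. It was the 1 member whose highest library was positive library 3. Cdk1, the kinase that cyclins A and B activate for entry into mitosis, was at 3.90, 8.30 and 0 CPM in the negative and 7.68, 32.8 and 3.77 CPM in the positive libraries. In tumor 3 its 0 counts stood against 107, which is 45.7-fold lower with a floor of 3 counts per library. That value is no lower bound. The exact counting interval of this pair reached up to a log2 ratio of -5.19, a smaller fall. With the block, limma-voom gave Ccnb2 a log2 fold change of -1.30 ± 0.28 (SE, adjusted p = 0.0225), Cdk1 one of -1.84 ± 0.48 (adjusted p = 0.0468) and Ccna2, the cyclin A of S phase and G2, one of -2.28 ± 0.36 (adjusted p = 0.00642). DESeq2 and edgeR did not call Cdk1 with the block, at adjusted p-values of 0.31 and 0.212. Ccnb2 was not called by edgeR with the block (adjusted p = 0.0535). Ccnb1, the other cyclin B, was at 0.08 to 2.90 CPM in the negative libraries and did not pass (adjusted p = 0.0682).

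Among the mitotic kinases and their partners, limma-voom with the block called Tpx2 and Birc5 lower. Tpx2, which activates Aurora A on the spindle, was at 1.07, 8.37 and 5.01 CPM in the negative and 4.70, 35.0 and 11.1 CPM in the positive libraries, with the negative level the lower in each tumor. Its log2 fold change was -1.85 ± 0.30 (SE, limma-voom with block, adjusted p = 0.00674). Birc5, the survivin subunit of the Aurora B complex, had one of -1.84 ± 0.39 (adjusted p = 0.0191). Plk1, Aurka and Aurkb, the kinases of mitotic entry, of the spindle poles and of chromosome attachment, had 0 or 1 count in negative library 3. Their log2 fold changes of -2.20, -2.36 and -1.99 had adjusted p-values of 0.101, 0.138 and 0.179.

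None of the 5 genes of the spindle checkpoint and of anaphase activation passed with limma-voom and the block. Bub1, Bub1b and Ttk encode checkpoint kinases that hold anaphase back, and Cdc20 and Ube2c the activator and the conjugating enzyme of the anaphase-promoting complex. Cdc20, the target of that checkpoint, was at 1.42, 5.93 and 3.38 CPM in the negative and 3.53, 13.1 and 7.30 CPM in the positive libraries. The other 4 had 0 or 1 count in negative library 3. Their adjusted p-values, Cdc20 included, ran from 0.0609 to 0.112, with a median log2 fold change of -2.24. DESeq2 with the block called Bub1, Bub1b, Ttk and Cdc20, but not Ube2c. Ube2c had 0.694 CPM in negative and 0.681 CPM in positive library 1, on 39 and 11 counts, so that its place among the 29 genes lower in all pairs rests on the added 0.5 count.

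Of the 5 centromere and kinetochore genes, limma-voom with the block called 4 lower, all but Ndc80. Cenpe, the kinetochore motor that moves chromosomes to the spindle equator, was at 1.18, 6.07 and 1.16 CPM in the negative and 2.79, 27.8 and 10.7 CPM in the positive libraries. Cenpf, a large protein of the outer kinetochore, was at 0.71, 3.48 and 0.61 CPM in the negative and 3.16, 14.8 and 8.54 CPM in the positive libraries. Each negative library lay below its partner for both genes, while negative library 2 exceeded positive library 1. With limma-voom and the block, Cenpe changed by -2.26 ± 0.37 (log2, SE, adjusted p = 0.00674), Cenpf by -2.38 ± 0.49 (adjusted p = 0.0177), Nuf2 by -1.72 ± 0.37 (adjusted p = 0.0214) and Cenpa, the histone H3 variant that marks centromeres, by -1.38 ± 0.35 (adjusted p = 0.0415). Ndc80, the partner of Nuf2 in the complex that grips microtubules, had 0 counts in negative library 3. In the same fit Ndc80 changed by -2.38 ± 0.71 (adjusted p = 0.0731), and DESeq2 with the block called it (adjusted p = 0.0133). With the block, edgeR called neither Nuf2 nor Cenpa (adjusted p = 0.0784 and 0.111).

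The spindle motors and microtubule binders held the largest fitted change. Nusap1, which bundles microtubules around the chromosomes, was at 0.91, 1.90 and 0 CPM in the negative and 5.51, 12.6 and 5.19 CPM in the positive libraries. Its highest negative level lay below its lowest positive level. Its log2 fold change was -3.12 ± 0.84 (SE, limma-voom with block, adjusted p = 0.0531) and did not pass, whereas DESeq2 with the block gave an adjusted p of 0.000243. In tumor 3 its 0 counts stood against 147, which is 62.8-fold lower with the same floor of 3 counts per library. Its exact counting interval there reached up to a log2 ratio of -5.66, a smaller fall, so 62.8-fold is no lower bound. Prc1, which crosslinks the microtubules of the central spindle, was at 1.57, 9.14 and 0.03 CPM in the negative and 9.04, 44.6 and 9.74 CPM in the positive libraries. Its log2 fold change of -2.52 ± 0.50 passed in limma-voom with the block (adjusted p = 0.0155), but not in DESeq2 (0.0509) or edgeR (0.0851). Kif11, the motor that pushes the spindle poles apart, Kif2c, a motor that takes microtubules apart, and Hmmr, a spindle-pole protein, also fell in limma-voom, by 1.46, 1.87 and 1.94 on the log2 scale. Kif2c had 13 counts in negative and 3 in positive library 1, so it was not lower in tumor 1. DESeq2 and edgeR did not call Kif2c with the block, at adjusted p-values of 0.207 and 0.359.

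Among the genes of the midzone and of cytokinesis, limma-voom with the block called Anln and Ect2 lower. DESeq2 with the block also called Kif23 (adjusted p = 0.00295), and edgeR with the block called only Anln of this group. Anln, the scaffold of the cleavage furrow, was at 1.66, 10.1 and 4.02 CPM in the negative and 7.49, 43.8 and 14.7 CPM in the positive libraries, which put each negative library below its partner. Its log2 fold change was -2.07 ± 0.26 (SE, limma-voom with block, adjusted p = 0.00227). Racgap1, which with Kif23 forms the centralspindlin complex that calls Ect2 to the midzone, was at 3.10, 11.4 and 13.1 CPM in the negative and 4.21, 34.0 and 12.0 CPM in the positive libraries. In tumor 3 its negative library was thus slightly above its partner. Kif23 had 1 count in the same library, so the 2 subunits of the complex stood apart there. Racgap1 changed by -0.99 ± 0.34 (log2, SE, adjusted p = 0.114), Kif23 by -2.28 ± 0.65 (adjusted p = 0.0635), Kif20a, a midzone motor, by -1.23 ± 0.35 (adjusted p = 0.0629) and Ect2, the exchange factor that switches on RhoA, by -1.72 ± 0.40 (adjusted p = 0.0302), all in limma-voom with the block.

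Both chromosome genes, Top2a and Mki67, fell with the block. Top2a, the topoisomerase that untangles sister chromatids, was at 2.33, 21.2 and 6.41 CPM in the negative and 14.4, 106 and 14.9 CPM in the positive libraries. Mki67, the source of the Ki-67 proliferation antigen that coats mitotic chromosomes, was at 4.72, 21.9 and 20.2 CPM in the negative and 16.6, 106 and 47.3 CPM in the positive libraries. For both genes each negative library lay below its partner, and the groups overlapped through negative library 2, and for Mki67 also through negative library 3. Limma-voom with the block gave log2 fold changes of -2.16 ± 0.25 for Top2a (SE, adjusted p = 0.00164) and -1.86 ± 0.23 for Mki67 (adjusted p = 0.00233). Without the block the same genes had SEs of 1.07 and 0.77 and adjusted p-values of 0.329 and 0.275. With Anln, they were the 3 members called in the blocked fit without tumor 2.

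Overlap with neighbouring genes may limit several of these values. It was read from whole gene spans, and overlap of exons or of reads was not examined. Whether the counting used strand was not stated, and members overlap annotated genes on the same stretch of chromosome: Ccna2 with Exosc9, Aurka with Cstf1, Cdc20 with Elovl1 and Kif20a with Brd8 and Cdc23, all partners with more counts than the member. Nusap1 with Oip5, Prc1 with Rccd1 and Anln with 9530077C05Rik had fewer counts in the partner, 361 against 1447, 595 against 4730 and 307 against 4976. Anln spans bases 22331214 to 22389211 of chromosome 9, Top2a bases 98992947 to 99024199 of chromosome 11, Mki67 bases 135689784 to 135716450 of chromosome 7 and Nusap1 bases 119618298 to 119650165 of chromosome 2 (GRCm38.p6).

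The 3 pairs differed in how evenly the genes were lowered. Given here are counts of lower genes in CPM and medians of voom log2 ratios. In tumor 2 all 33 genes were lower in the CD34 negative library, with log2 ratios from -2.72 to -1.14, a median of -2.01 and an SD over genes of 0.34, and the 95% counting interval of every gene lay below 0. In tumor 1, 29 genes were lower and Foxm1, Mybl2, Kif2c and Ube2c were not, with a median of -1.25, an SD of 1.00 and 24 intervals below 0. In tumor 3, 30 genes were lower and Foxm1, Mybl2 and Racgap1 were not, with a median of -1.97, an SD of 2.90 and 30 intervals below 0. Over the 21 genes with more than 1 count in negative library 3, that SD was 1.16, from ratios without an added count. Tumor 2 was thus the pair with a near-uniform lowering, of 4.03-fold at its median. Its positive library had at least 499 counts for each member, against at least 3 in positive library 1. The part of counting error in these SDs was not tested. Levels within a fraction also differed between tumors: positive library 2 was above positive library 1 for 33 members, at a median ratio of 6.40, and negative library 2 was above negative library 1 for 32, at a median ratio of 4.65. Negative library 2 exceeded positive library 1 for 29 members, which is why so few genes had groups without overlap. The difference between the tumors was not tested.

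**Figure D3:**
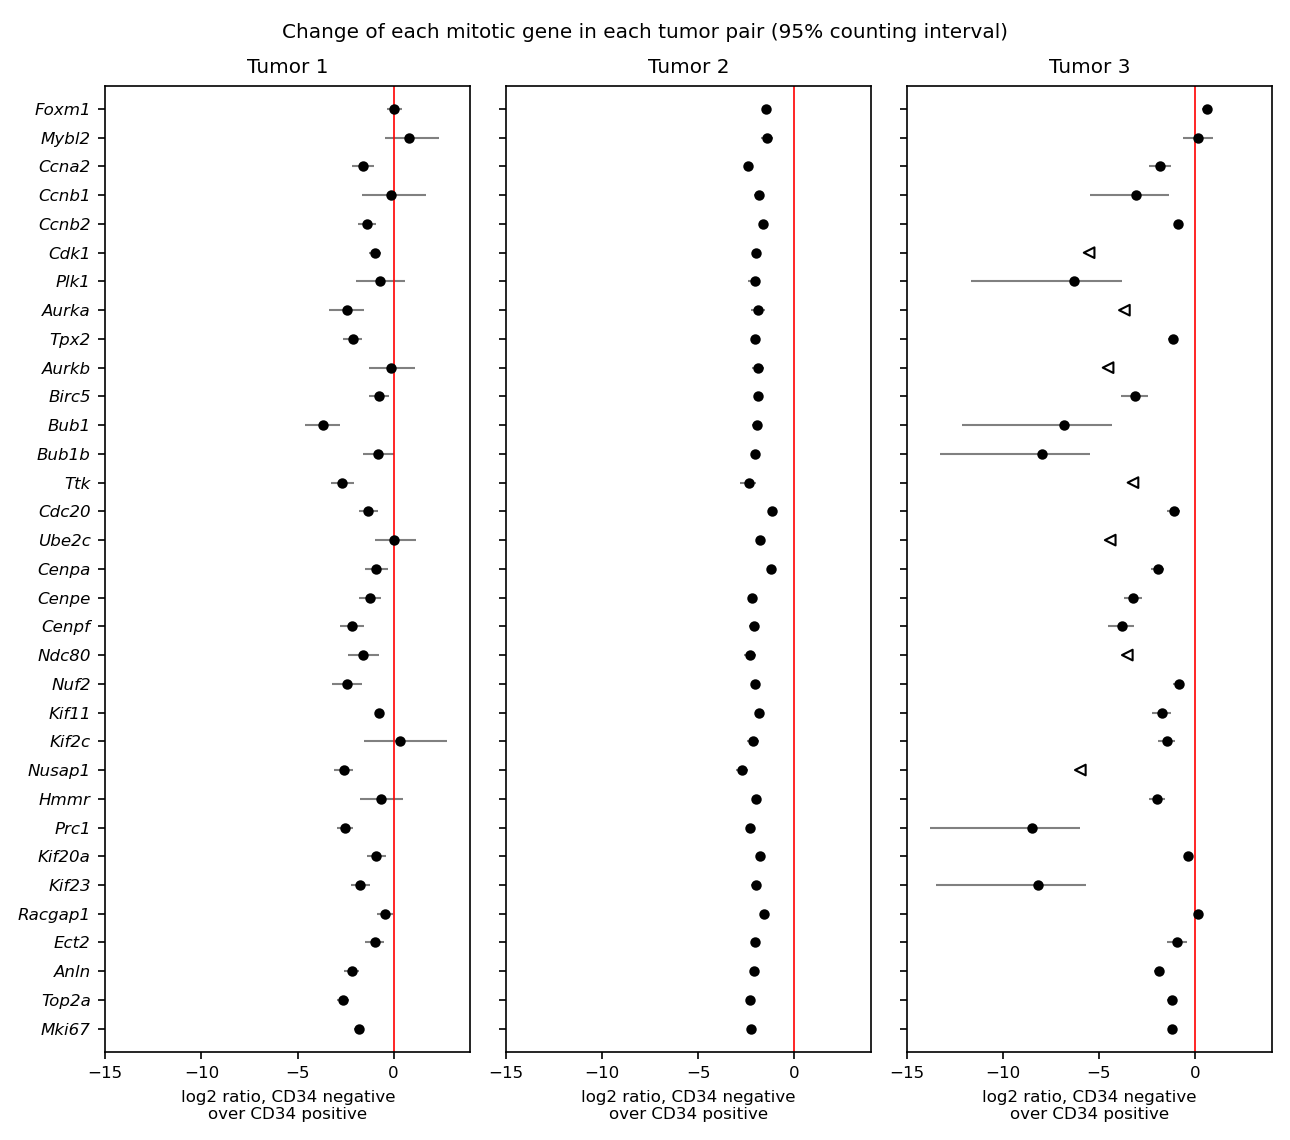
Log2 ratio of CD34 negative over CD34 positive for each of the 33 genes (rows) in tumors 1, 2 and 3, from CPM without an added count, with 95% counting intervals as lines and open triangles at the ratio that a floor of 3 counts gives where negative library 3 had 0 counts. The points of tumor 2 form a narrow band from about -2.72 to -1.14, those of tumor 1 reach above 0, and those of tumor 3 spread most.

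In tumor 3 the genes fell into those counted and those nearly absent. Negative library 3 had 0 counts for 7 members (Cdk1, Aurka, Aurkb, Ttk, Ube2c, Ndc80 and Nusap1) and 1 count for 5 (Plk1, Bub1, Bub1b, Prc1 and Kif23), 12 of 33 or 36.4%, against 8.81% of tested genes. The other 21 had 3 counts, for Ccnb1, up to 734, for Mki67, and their median log2 ratio in tumor 3 was -1.23, against -1.97 over all members. In positive library 3 the 12 genes had been at 0.776 to 9.74 CPM. In that range of positive library 3, 12 of 23 members, 52.2%, had 0 or 1 count in negative library 3, against 509 of 4466 tested genes, 11.4%. The range was set by the 12 genes themselves, so all 12 lie in it by construction and members outside it drop out. The share of 52.2% is therefore raised in advance and is no fair contrast with 11.4%. The CD34 negative fraction of tumor 2 counted all of these 12 genes. With the block 2 of the 12 passed (Cdk1 and Prc1) and 15 of the other 21, at median SEs of 0.70 and 0.36. Without tumor 3 the blocked fit called 32 of 33 members, all but Mybl2 (adjusted p = 0.0897), against 7.32% of tested genes, at a median log2 change of -1.93. Without tumor 2 it called 3 of 32 members tested, against 2.92%, with a median of -1.75, and without tumor 1 it called 12 of 33, against 3.51%. The part of the sparse library in these counts was not tested.

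**Figure D4:**
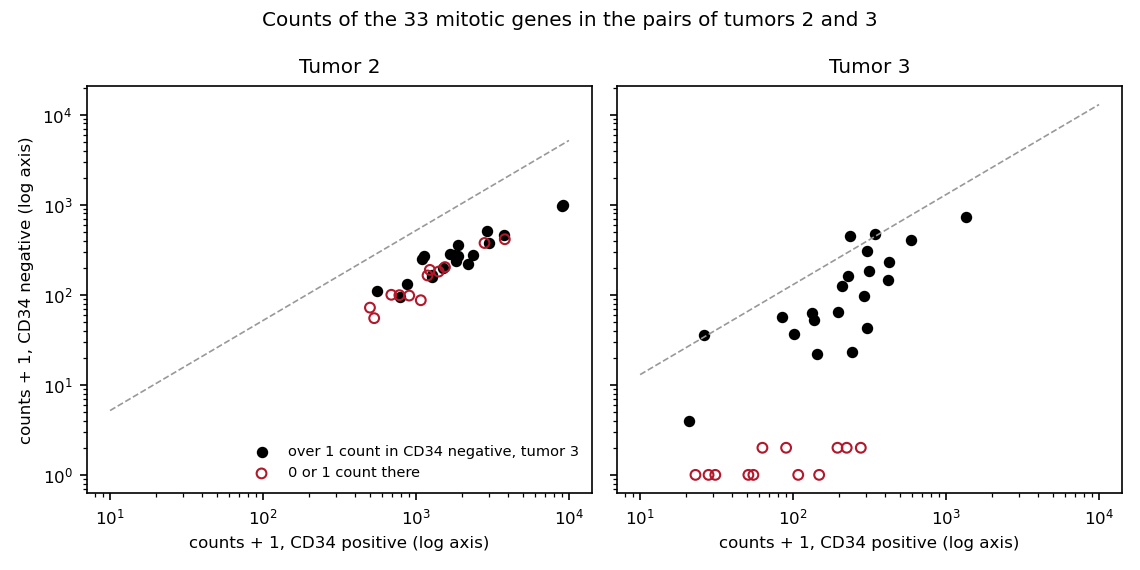
Counts plus 1 of the 33 genes in the CD34 positive (horizontal) and CD34 negative (vertical) library of tumors 2 and 3, on log axes. The dashed line follows the ratio of the 2 library totals, without the TMM factor. Red open circles mark the 12 genes with 0 or 1 count in negative library 3. In tumor 2 the same 12 genes lie in 1 band with the other 21, below the line, and in tumor 3 they lie on the bottom edge, apart from the others.

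Genes of the same and of neighbouring steps of the cycle were read from lists written for this comparison. Of 61 further mitotic genes, 54 had a lower fitted level, and their log2 fold changes had a median of -2.01, or -1.43 with the block, beside -0.03 and -0.01 over all tested genes. With the block 4 passed, all lower (Cdca3, Ckap2l, Melk and Ncapd2), or 6.56% against 4.25% of tested genes. Of 47 DNA replication genes, 45 had a lower fitted level, with a median of -1.04, or -0.91 with the block, and 4 passed, all lower (Mcm2, Mcm5, Prim1 and Uhrf1), or 8.51%. With the block edgeR called 1 of the further mitotic genes, or 1.64%, and 0 of the replication genes, against 2.11% of tested genes. DESeq2 with the block called 22, or 36.1%, and 3, or 6.38%, against 6.02%, so that the replication genes lay near the background. In tumors 1, 2 and 3 the median log2 ratios of the replication genes were -0.29, -1.30 and 0.10, and those of the further mitotic genes -0.98, -1.65 and -1.19. Without tumor 3 the blocked fit called 41 of the further mitotic and 25 of the replication genes, all lower, or 67.2% and 53.2% against 7.32% of tested genes. Without the block 0 genes of any list passed in limma-voom, with 19 and 7 of these 2 lists at an unadjusted p under 0.05 and lower, or 31.1% and 14.9% against 7.1%. TTTGAA was in the window of 31 of 51 further mitotic genes, 60.8%, and of 8 of 38 replication genes, 21.1%.

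None of the most abundant genes of these 2 lists passed. Ckap5, which speeds microtubule growth, was at 45.2, 59.2 and 71.5 CPM in the negative and 61.3, 86.9 and 72.9 CPM in the positive libraries (limma-voom with block, adjusted p = 0.216). Smc4, a condensin subunit, gave an adjusted p of 0.162, and Wee1, a kinase that holds CDK1 inactive, one of 0.138, with a CD34 negative level above its partner in all 3 tumors. Among the replication genes, Rrm1, which makes deoxynucleotides, Pcna, the sliding clamp, and Dnmt1, which copies DNA methylation, had adjusted p-values of 0.695, 0.843 and 0.784. Pcna was at 105 CPM in negative library 3 and 57.0 CPM in its partner, the reverse of tumor 2, where it was at 53.1 and 103 CPM.

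The lists of the anaphase-promoting complex and of the MuvB and DREAM genes had medians closer to 0. For the 16 subunits and cofactors of the anaphase-promoting complex the median of the log2 fold changes was -0.16, or -0.14 with the block, none passed in limma-voom, edgeR or DESeq2 with the block, with 2 at an unadjusted p under 0.05 in limma-voom without it, and none had 0 or 1 count in negative library 3. Anapc5, Anapc1 and Anapc2 were the most abundant, with log2 fold changes of -0.16, -0.17 and 0.22 with the block. The 12 MuvB and DREAM genes, whose complex carries B-MYB or represses the same promoters in resting cells, had a median of -0.30, or -0.29 with the block, none passed in limma-voom or edgeR with the block and 1 in DESeq2, with 1 at an unadjusted p under 0.05 in limma-voom without it, and none had 0 or 1 count in negative library 3. Rbbp4, the most abundant of these, was at 119, 112 and 108 CPM in the negative and 130, 151 and 125 CPM in the positive libraries, without overlap (limma-voom with block, log2 fold change -0.27 ± 0.13, SE, adjusted p = 0.259). Rbl2 and Tfdp1 had adjusted p-values of 0.509 and 0.183. The gene called by DESeq2 with the block was Rbl1 (adjusted p = 0.0386), with a limma-voom log2 fold change of -1.74 with the block. It was at 0.39 CPM in negative library 3 and 14.8 CPM in positive library 3. How the lists differ from the members was not tested.

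Markers of other cells were low, and some moved with the fractions. The 10 fibroblast markers summed to 68505 to 94702 CPM in the negative and 77984 to 94944 CPM in the positive libraries. Of these, limma-voom with the block called Dcn, Lum and Fap lower and Pdgfrb higher. The 6 pericyte and smooth muscle markers summed to 205 to 234 CPM in the negative and to at most 107 CPM in the positive libraries, without overlap. Of these, limma-voom with the block called 3 higher (Cspg4, Mcam and Notch3) and Kcnj8 lower. The 10 epithelial markers summed to 174, 154 and 59.3 CPM in negative libraries 1, 2 and 3 and to 148, 105 and 22.4 CPM in positive libraries 1, 2 and 3, higher in the negative library of each tumor. Of the 9 tested, 8 had a higher fitted level and none passed in limma-voom without or with the block, with 0 at an unadjusted p under 0.05 without it and 1 called by DESeq2 with it. Epcam was at 23.3, 18.5 and 1.93 CPM in the negative and 22.5, 13.6 and 0.56 CPM in the positive libraries. The 8 immune markers summed to 14.3 to 18.0 and 7.80 to 21.2 CPM, with Ptprc at 0 to 0.48 CPM in all libraries. Cd3e, a T cell gene on the immune list, was at 0.04, 1.77 and 1.27 CPM in the negative and 1.24, 5.89 and 3.53 CPM in the positive libraries. It was the 1 immune marker of 8 that was lower in the negative library of each tumor, as the mitotic sums were. Lyz2 and Cd79a of the same list were higher in the negative library of each tumor. Lyz2 was at 6.73, 6.02 and 8.83 CPM in the negative and 1.79, 4.48 and 2.58 CPM in the positive libraries. The 6 endothelial, 5 erythroid and 4 Schwann markers summed to at most 28.6, 8.03 and 18.3 CPM in any library. The part of these other cells in the mitotic levels was not tested.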

How the data were processed

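The authors aligned the reads to GRCm38 (mm10) and counted them per NCBI gene with featureCounts of Rsubread, and the deposited values are raw counts per gene and library. Libraries followed the TruSeq RNA v2 protocol, and strand and multi-mapping settings were not stated. Groups and tumor numbers came from the sample titles. Genes were filtered with filterByExpr (minimum count 10), scaled by TMM and compared with limma-voom, as in the study's methods, on all 6 libraries, two-sided, with Benjamini-Hochberg adjustment over 14855 genes and a threshold of 0.05. The methods do not say whether the tumor was in the design, and the main model has no tumor term. It called 3 genes higher in the CD34 negative fraction, and limma-voom with the tumor as a block called 642. The paper reports far more than 3 higher genes for this comparison, so the main model did not reproduce its calls. CPM were scaled by library size and TMM factor. Software was limma 3.58.1, edgeR 4.0.16 and DESeq2 1.42.0 in R 4.3.3. The tumor number pairs the libraries because both fractions came from the same tumor. Deviations from the group means correlated at 0.373, 0.350 and 0.219 in tumors 1, 2 and 3, so the model was also fitted with a block for tumor. Members were named in full, by role, and of each further list the 3 genes with the highest mean CPM. Members and lists were chosen with earlier results of these data known. Other settings covered the tool, normalization, filter, weights, depth, and libraries left out. The scripts were tried on simulated counts. Counting intervals are exact binomial at 95% and cover counting error only.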

Additional observations from a re-analysis of the deposited data

How the results depend on the processing

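Of the 33 genes, all kept a lower fitted level in the CD34 negative fraction in every fit to all 6 libraries. The number of members called and their median log2 fold change moved with the tumor term and the tool. Without a block, the median was -1.87 in edgeR, which called 9 of all genes, and -1.87 in DESeq2, which called 698 of all genes and 1 member. It was -1.92 in limma-trend and -2.00 with sample quality weights, which called 161 of all genes, and library totals alone gave 32 calls. Tumor as a random effect gave 703 calls, 0 of members and 1 of the other cell cycle genes.

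With the replicate block, limma-voom called 1273 genes, 17 members at a median of -1.87 and 8 other cell cycle genes. edgeR with the block called 575, 7 members at -1.97 and 1 other, and DESeq2 with the block called 1733, 23 members at -1.98 and 26 others. With counts thinned to the smallest total and the block, 1028 genes, 12 members at -1.92 and 4 others passed. Sample quality weights with the block, chosen after seeing the data, called 2904 genes, 33 members at -1.99 and 77 others. 

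The fits that leave out a library or a tumor have fewer samples. Leaving out each library without a block, calls among all genes ran from 0 to 34, members called stayed at 0, and their median ran from -3.56 to -1.44, the weakest without positive library 2. Leaving out negative library 3 or positive library 2 gave 0 calls in limma-voom, while 2217 and 1555 genes had an unadjusted p below 0.05. With the block, the fits without tumors 1, 2 and 3 called 1134, 851 and 2019 genes, 12, 3 and 32 members and 9, 0 and 68 others, at member medians of -2.03, -1.75 and -1.93. With the block and without negative library 3, chosen after seeing the data, 1859 genes, 32 members at -1.92 and 63 others passed. Over the fits without each library, Foxm1 ran from -1.18 to 0.13 and Mybl2 from -1.84 to 0.78, with both positive values without positive library 2 (adjusted p = 0.969 and 0.901 in limma-voom). They turned to 0.44 and 0.30 (0.848 and 0.983) with the block without tumor 2. Racgap1 then stood at 0.0031 (0.999). Leaving out tumors 1, 2 and 3 without a block, also chosen after seeing the data, gave 86, 0 and 0 calls in limma-voom, with 1123 and 1641 genes at an unadjusted p under 0.05 in the last 2, a member median of -2.17 without tumor 2, and Foxm1 and Mybl2 there at 0.062 and 0.23 (0.994 and 0.987). The causes were not tested. The normalization by DESeq2 size factors, no low-count filter and genes with a symbol only changed no member's call. The block was given beside each result whose call it changed. Levels under about 1 CPM rest on few counts in the smaller libraries, and 3 libraries per group limit the tests.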
